A study of Danio rerio with 14 samples.

Results

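The splicing factors and hnRNPs on the zebrafish array comprised 100 genes of the 8793 that a single-gene probe set names. They were picked by the start of the symbol: sf3a or sf3b, snrp, srsf, hnrnp, prpf, u2af, lsm with a digit, or rbm with a digit or x. Each gene was followed through the probe set with the highest mean signal. The group was chosen with earlier results of these data known. Expression was measured in whole embryos of the TL strain, collected at 8 hpf (hours after fertilization), when gastrulation is under way. The 7 ethanol samples came from embryos held in 100 mM (0.6%) ethanol for 6 hours, starting at 2 hpf, and the 7 control samples from untreated embryos of the same age and strain. Each sample was a pool of approximately 20 embryos, hybridized to 1 array. Pools with the same number in their titles (1 to 6 and 8) were taken as 1 embryo batch. Each of the 7 embryo batches gave a control pool and an ethanol pool. Per the methods these were independent experiments, each with the offspring of 1 breeding pair, so parents and experiment cannot be told apart within a batch. RNA of a pool averages over every embryo and cell type, the yolk syncytial and enveloping layers included.

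Splicing removes introns from pre-mRNA. Small nuclear ribonucleoproteins (snRNPs), built on rings of Sm or LSM proteins, recognise the splice sites, and the SF3 complexes and U2AF help to fix the branch point and the end of the intron. PRPF proteins assemble and activate the spliceosome, SR proteins bind exons and generally favour their inclusion, and hnRNPs coat the transcript and often oppose it. Early zebrafish embryos live on maternal transcripts and start large-scale transcription of their own in the blastula, so that by gastrulation both maternal and newly spliced RNA are present.

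Signals were MAS5 intensities on a linear scale, scaled by the authors to the same target on each array. The median signal of an array ran from 214 to 282 in control pools and from 219 to 296 in ethanol pools. A gene was tested where 3 or more of the 7 pools of a treatment had a signal of 200 or higher. This held for 97 of the 100 genes, and 91 of them were that high in all 14 pools. The other 3, rbm25a, rbm33b and rbm46, were that high in 1, 2 and 2 pools and were not tested. A signal belongs to its own probe set, so levels are compared between pools and not between genes. In pooled embryos, fewer cells of a type and less RNA per cell cannot be told apart. Among markers of other cell types, 6 of 11 yolk syncytial layer genes tested fell with ethanol and none rose. The log2 changes of these 6 ran from -1.58 (apoa4b.1) to -0.39 (tfa). The summed signal of the 11 ran from 138189 to 169484 in control pools and from 113617 to 164906 in ethanol pools. Its largest parts were apoeb and apoc1 (means of 77325 and 44038 in control pools), which were not called (log2 changes of -0.02 and -0.20). Of 11 enveloping layer markers 2 fell, of 12 ectoderm markers 1 rose, of 4 germ cell markers 1 rose and of 13 mesoderm and endoderm markers none passed the test. As a sign of RNA quality, the 3' to 5' signal ratio of the GAPDH control probe sets differed by 1.82 on the log2 scale (ethanol minus control) and was larger in the ethanol pool of 6 batches out of 7, at p = 0.0625 in an exact two-sided permutation test. For the acta1 control probe sets the difference was 1.57, larger in the ethanol pool of 5 batches (exact permutation p = 0.156). No signal minimum was applied to these control probe sets, and their levels are not given here. The methods give a high RNA integrity number for every sample before labelling. The part of these shifts in the values below was not tested.

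Few transcripts of the splicing machinery passed the test for ethanol. Of the 97 genes tested, none rose, 3 fell and 94 did not pass the test (limma with embryo batch as a block, Benjamini-Hochberg adjusted p up to 0.10). Over all 9240 probe sets tested, 4.36% were called, 2.36% higher and 2% lower, so the 3 falls are near the background share. The genes that fell were srsf1a, prpf39 and rbm39a. At an unadjusted p under 0.05, 8 of the 97 were lower and 3 higher, 11 in all, against 7.45%, 7.51% and 15% of all probe sets. In all 7 pairs, 3 of the 97 were lower (srsf1a, rbm39b and srsf3b) and 2 higher (hnrnph1 and lsm14aa), against 2.97% and 3.15% of all probe sets. The median log2 change of the 97 genes was -0.02, beside -0.0014 for all probe sets tested. In no gene were the signals of the 7 ethanol pools wholly apart from those of the 7 control pools, which was so for 0.357% of all probe sets.
These transcripts were measured with more precision than most. Their median standard error (SE) was 0.08 on the log2 scale, against 0.14 for all probe sets. It was 0.13 for all named genes, when each is likewise followed through its probe set with the highest mean signal. Variances were moderated with a trend on the mean signal, so the SE depends in part on signal level. Such precision was not particular to splicing genes: krt4 (SE 0.06) and apoeb (SE 0.07), also of high signal, had like values. The part of signal level in this contrast was not tested. The 95% interval of the ethanol change lay inside a 1.5-fold rise or fall for 92 of the 97 genes. This held for 63% of all probe sets (5821) and for 68.5% of those named genes. The remaining 5 genes, rbm25b, rbm44, snrpd2, hnrnph1 and lsm14b, had mean signals between 152 and 459 in the control pools, and their intervals were too wide to place the change inside those limits.

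**Figure D1:**
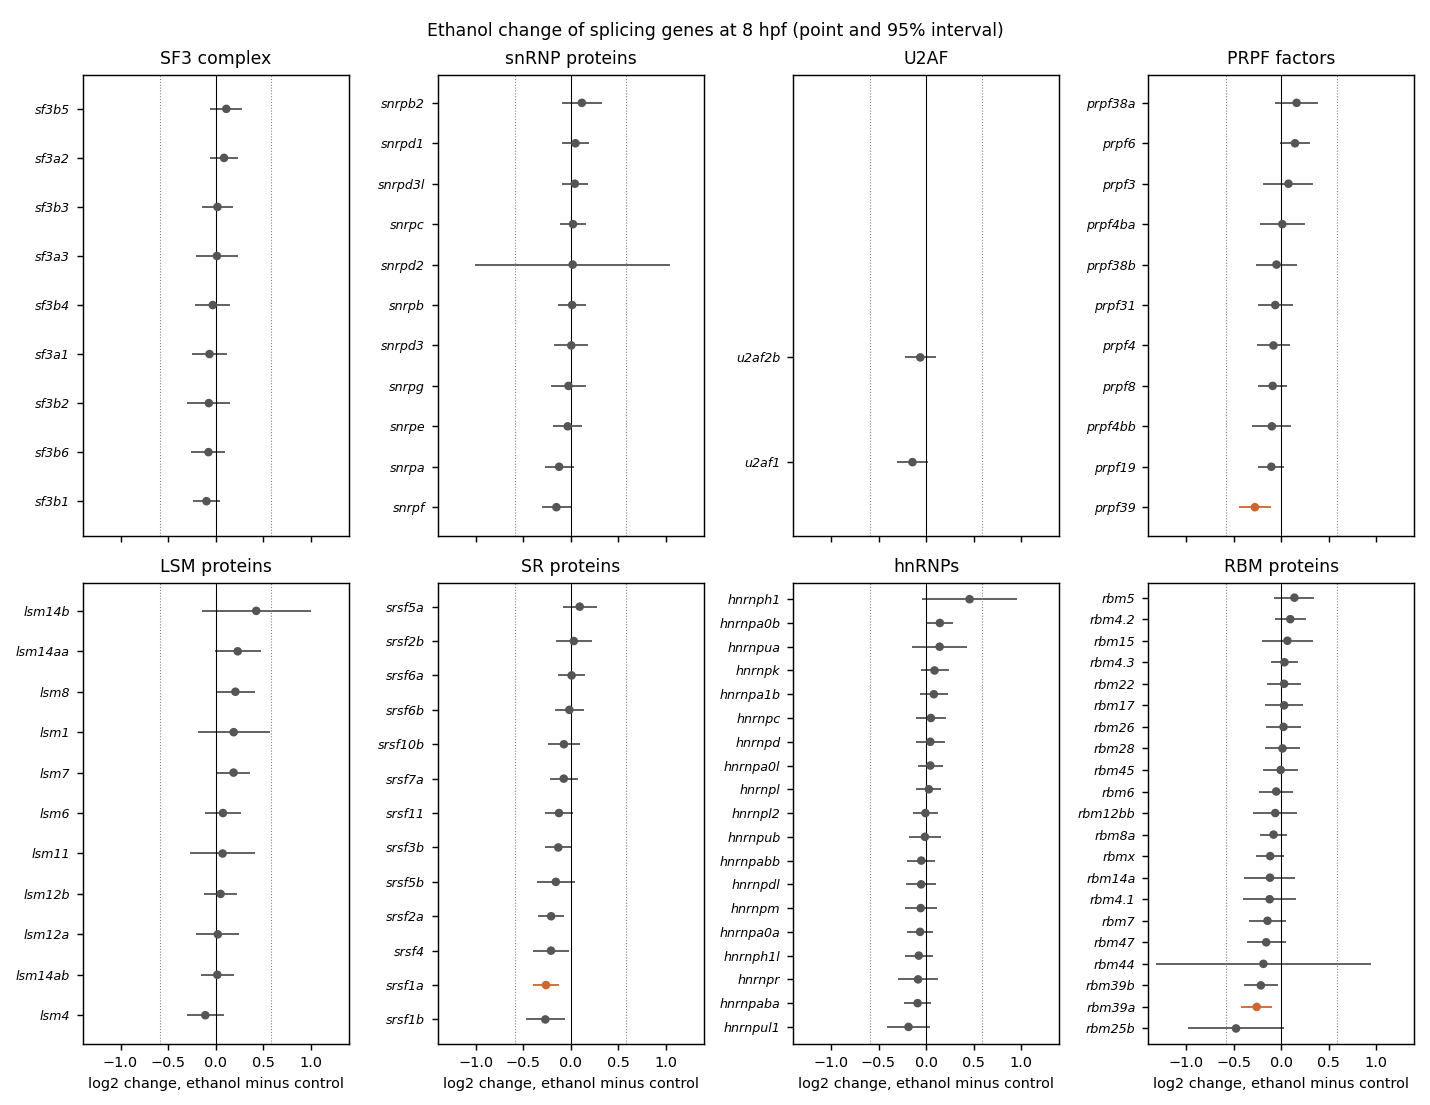
Log2 change of each splicing gene with ethanol (x axis, ethanol minus control over 7 pairs) by family, with the point estimate and its 95% interval. Orange marks the 3 genes that passed an adjusted p of 0.10, dotted lines mark 1.5-fold, and 92 of 97 intervals stay between them.

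The 3 genes that fell belong to different families. The gene srsf1a encodes an SR protein whose mammalian counterpart binds exonic enhancers and promotes exon inclusion. In the control pools of batches 1 to 6 and 8 its signals were 12302, 11552, 10874, 10798, 11156, 11639 and 13033. In the ethanol pools of the same batches they were 9382, 9857, 9643, 8710, 9958, 9034 and 11367. All 7 ethanol pools were below the control pool of their batch, although the 2 ranges overlap. Its signal fell by 16.6%. The log2 fold change was -0.26, SE 0.07, adjusted p = 0.0439 (limma, n = 7 pairs).
The gene prpf39 encodes a factor that, in yeast, is part of the U1 snRNP, which binds the start of the intron. Its signals, in the same order of batches, were 9079, 8176, 9353, 7349, 10641, 9363 and 10557 in control pools. They were 6811, 8934, 7140, 6015, 7271, 8472 and 8673 in ethanol pools. It was lower in 6 of 7 pairs and the ranges overlap, with batch 2 as the exception (8176 in the control pool and 8934 in the ethanol pool). Its signal fell by 17.5%. The log2 fold change was -0.28, SE 0.08, adjusted p = 0.0793 (limma, n = 7 pairs).
The gene rbm39a encodes a protein related to U2AF that takes part in splice site recognition in mammals. Control pools gave 7484, 5687, 7768, 6731, 8153, 6024 and 6478, and ethanol pools gave 5769, 5864, 6522, 5743, 5553, 5083 and 5642. Again batch 2 was the exception, at 5687 and 5864, and the ranges overlap. Its signal fell by 16.4%. The log2 fold change was -0.26, SE 0.08, adjusted p = 0.0959 (limma, n = 7 pairs). None of the 3 calls held under every setting: srsf1a missed the threshold without batch 4, 6 or 8 (adjusted p = 0.11, 0.123 and 0.108), and prpf39 and rbm39a missed it with any pair but that of batch 2 left out (adjusted p up to 0.228 and 0.26). None of the 3 was called where variances were moderated without a trend on the mean signal, nor with no replicate block, nor with each array centred on its median. With batch as a random effect, by a correlation shared by all probe sets, srsf1a was called (limma adjusted p = 0.0629). In that fit prpf39 and rbm39a were not called (limma adjusted p = 0.152 and 0.132).

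**Figure D2:**
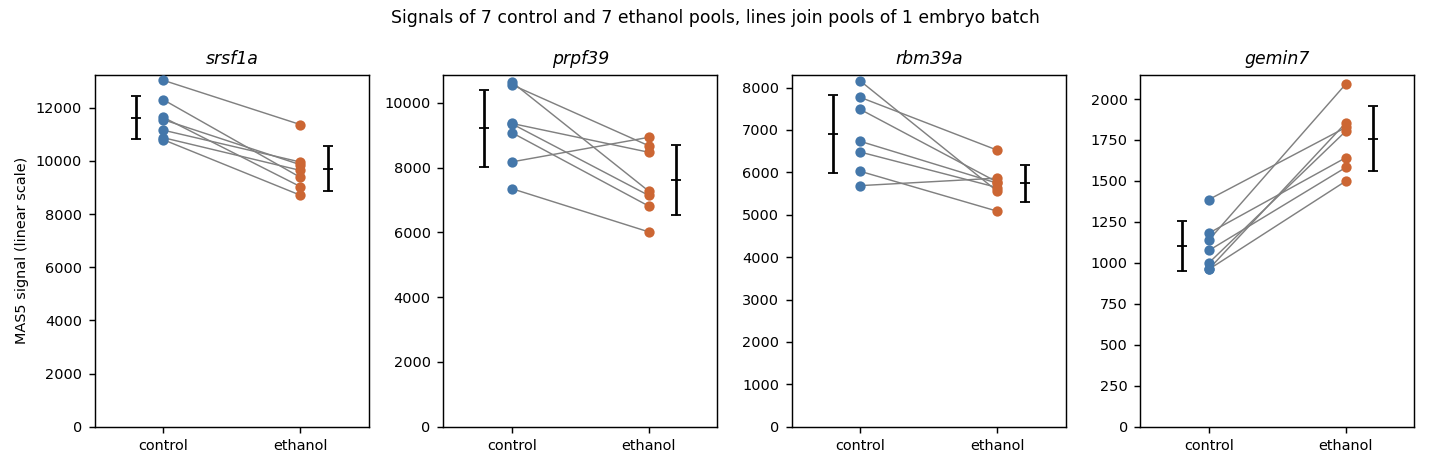
MAS5 signals (y axis, linear, from 0) of srsf1a, prpf39, rbm39a and gemin7 in 7 control and 7 ethanol pools, with grey lines joining the pools of a batch and black marks for mean and SD. Ethanol pools lie lower in 7, 6 and 6 of 7 batches for the first 3 genes and higher in all 7 for gemin7, the gene among these whose pools do not overlap.

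Of the snRNP proteins, all 11 genes were tested and none passed the test, with a median log2 change of 0.01. Of the Sm ring proteins, snrpd1 had a log2 change of 0.05, SE 0.07, snrpb of 0.01, SE 0.07, and snrpe of -0.03, SE 0.07. The 95% interval for snrpd1 ran from -0.09 to 0.19. The highest value of the family was that of snrpb2 (0.12, SE 0.10), a U2 snRNP protein. The lowest was that of snrpf (-0.15, SE 0.07, adjusted p = 0.321), another Sm protein, with signals of 18571 ± 2090 (SD, n = 7) in control pools and 16666 ± 1315 (SD, n = 7) in ethanol pools. The probe set for snrpd2 reached a signal of 200 in 5 of 14 pools and its interval, from -1.01 to 1.05, is wide enough to hold a 2-fold change in either direction.
The SF3 complex binds the branch point region as part of the U2 snRNP. None of its 9 genes passed the test, and all 9 had intervals inside 1.5-fold. They ran from sf3b1, its largest scaffold subunit (-0.10, SE 0.07), to sf3b5 (0.11, SE 0.08). Of the U2AF genes, u2af1, which reads the end of the intron, had a value of -0.14, SE 0.08, and u2af2b, which binds the pyrimidine-rich tract before it, of -0.06, SE 0.08. Neither passed the test, although each was lower in 6 of 7 pairs by these probe sets. A second probe set of u2af2b gave 0.01, SE 0.07, and was lower in 4 of 7 pairs.
Among the PRPF genes, prpf39 fell and 10 were not called. The core factor prpf8, which lies at the centre of the spliceosome, gave signals of 11534 ± 465 (SD, n = 7) in control pools and 10856 ± 896 (SD, n = 7) in ethanol pools (-0.09, SE 0.07, adjusted p = 0.61). The ubiquitin ligase gene prpf19 had a value of -0.10, SE 0.06, and the tri-snRNP gene prpf6 of 0.14, SE 0.08. The highest value was that of prpf38a (0.16, SE 0.11).

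Most SR protein genes had values below 0. Of their 13 genes, 1 fell and 12 did not pass the test, 10 had a value below 0 and 3 above it, and the median log2 change was -0.12. Below 0 there were 50.2% of all probe sets tested (4641). An unadjusted p under 0.05 was found in 4 of the 13, all of them lower: srsf1a, srsf1b, srsf2a and srsf4. Of all probe sets, 7.45% were lower at that p and 7.51% higher. Each of the other families had 0 to 2 such genes, and the contrast between families was not tested. The lowest value among the SR protein genes was that of srsf1b (-0.27, SE 0.10, adjusted p = 0.175), with signals from 2222 to 3049 in control pools and from 1820 to 2573 in ethanol pools. For srsf2a, which in mammals binds exonic enhancers, signals ran from 18438 through 19153 to 23599 in control pools and from 15681 through 16987 to 18913 in ethanol pools (-0.21, SE 0.07, adjusted p = 0.11). The gene srsf3b was lower in all 7 pairs by a small amount (-0.13, SE 0.07, adjusted p = 0.361). In contrast, srsf5a (0.09, SE 0.09), the highest of the family, srsf2b (0.03, SE 0.09) and srsf6a (0.01, SE 0.07) were not below 0. Further probe sets of srsf6a gave 0.01, SE 0.09, and 0.27, SE 0.12. The latter was higher in 6 of 7 pairs (limma unadjusted p = 0.0381, adjusted p = 0.296). That of srsf1b gave -0.28, SE 0.13 (limma adjusted p = 0.319).
The LSM genes mostly had values above 0. None of their 11 genes passed the test, but 10 had a value above 0 and the median was 0.08. Above 0 there were 4599 of the 9240 probe sets tested. Further probe sets of lsm12b (-0.07) and lsm14aa (-0.32) lay below 0, and those of lsm11 (0.39) and lsm12a (0.15 and 0.25) above it. LSM rings hold the U6 snRNA in the nucleus and, in another composition, promote mRNA decay in the cytoplasm. The U6 ring gene lsm8 had signals of 3464 ± 553 (SD, n = 7) in control pools and 3976 ± 428 (SD, n = 7) in ethanol pools (0.21, SE 0.10, adjusted p = 0.314). The gene lsm7, whose protein is in both rings, gave 6474 ± 866 (SD, n = 7) and 7355 ± 728 (SD, n = 7), at 0.19, SE 0.08, adjusted p = 0.276. The decay ring gene lsm1 had a value of 0.19, SE 0.18. The highest value was that of lsm14b (0.43, SE 0.27), a gene of cytoplasmic RNA granules near the detection minimum, and the exception below 0 was lsm4 (-0.11, SE 0.09). The balance of signs in the SR and LSM families is a description, and srsf1a is the single gene called in them.

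None of the 19 hnRNP genes passed the test, and 18 of them had intervals inside 1.5-fold. Their median log2 change was -0.01. Values were above 0 for 9 of the 19 and below 0 for 10. Examples above 0 were hnrnpc (0.05, SE 0.08), hnrnpl (0.03, SE 0.06), hnrnpk (0.09, SE 0.07) and hnrnpa1b (0.08, SE 0.07). Examples below 0 were hnrnpm (-0.06, SE 0.08), hnrnpr (-0.08, SE 0.10), hnrnpaba (-0.09, SE 0.07) and hnrnpabb (-0.05, SE 0.07). The gene hnrnpa0b had the smallest p of the family. Its signals were 61013 ± 3238 (SD, n = 7) in control pools and 67925 ± 9429 (SD, n = 7) in ethanol pools (0.14, SE 0.07, adjusted p = 0.316). Another pair of probe sets named for hnrnpa0b gave -0.04, SE 0.07, and -0.35, SE 0.11 (adjusted p = 0.109, lower in all 7 pairs), so its probe sets disagreed in sign and none of them was called. The highest value was that of hnrnph1, at 0.46, SE 0.24, higher in all 7 pairs, with signals from 124 to 327 in control pools and from 154 to 429 in ethanol pools. Its close relative hnrnph1l, at 15034 ± 547 (SD, n = 7) and 14280 ± 1068 (SD, n = 7), had a value of -0.08, SE 0.07. The lowest was hnrnpul1 (-0.18, SE 0.11).
The RBM symbols take in RNA binding proteins of several kinds, not all of them splicing factors. Of 21 tested, rbm39a fell and 20 did not pass the test. The exon junction protein gene rbm8a had a value of -0.08, SE 0.07, the spliceosome gene rbm22 of 0.03, SE 0.09, and rbmx, a relative of the hnRNPs, of -0.12, SE 0.07. The highest was rbm5 (0.14, SE 0.10), a regulator of alternative splicing in mammals, and the lowest rbm25b (-0.48, SE 0.24, adjusted p = 0.368), with signals from 305 to 739 in control pools and from 150 to 599 in ethanol pools.

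Further probe sets allowed a look at the same genes by other probes. There were 29 of them for 21 genes, of which 24 could be tested, and none of these was called. Their sign was that of the first probe set in 12 cases and the opposite in 12. For srsf1b the 2 probe sets gave -0.27 and -0.28 (SE 0.10 and 0.13), and for rbm39b -0.21 and -0.26 (SE 0.09 and 0.10). For sf3b1 they gave -0.10 and -0.18 (SE 0.07 and 0.09). Among the cases of opposite sign, those of rbm4.2 gave 0.09 and -0.09 (SE 0.08 and 0.09), and those of prpf3 0.08 and -0.55 (SE 0.13 and 0.31). Each of srsf1a, prpf39 and rbm39a has a single probe set, so their falls rest on it.

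Many zebrafish splicing genes are kept as 2 copies from a genome duplication in fish, and the response of both copies to ethanol was compared in 11 such couples. None differed past an adjusted p of 0.10 (exact two-sided sign-flip permutation test over 7 pairs, adjusted over 11 couples). The smallest p which 7 pairs allow is 0.0156, which for a lone couple among 11 cannot pass that threshold, so the differences are given with their intervals. The smallest adjusted p found was 0.301. The copies srsf1a and srsf1b had a difference of 0.01, with a 95% interval from -0.28 to 0.26. For rbm39a and rbm39b it was -0.04, from -0.11 to 0.06, the narrowest interval of the 11. In rbm39b, signals of 2873 ± 425 (SD, n = 7) in control pools and 2461 ± 243 (SD, n = 7) in ethanol pools gave a log2 change of -0.21, SE 0.09, lower in 7 of 7 pairs, though it did not pass the test (adjusted p = 0.228, limma). Only for lsm14aa and lsm14ab was the unadjusted p under 0.05 among the 11 couples: lsm14aa was higher in all 7 pairs (0.23, SE 0.11) and lsm14ab had a value of 0.02, SE 0.08, a difference of 0.21, from 0.03 to 0.45 (exact permutation p = 0.0469, adjusted p = 0.301). A second probe set of lsm14aa, near the signal minimum, gave -0.32, SE 0.27. The widest intervals were those of prpf4ba and prpf4bb (from -0.32 to 0.49) and of hnrnpua and hnrnpub (from -0.19 to 0.54). Those of srsf5a and srsf5b (from -0.05 to 0.67) and of srsf2a and srsf2b (from -0.50 to 0.19) came next.

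**Figure D3:**
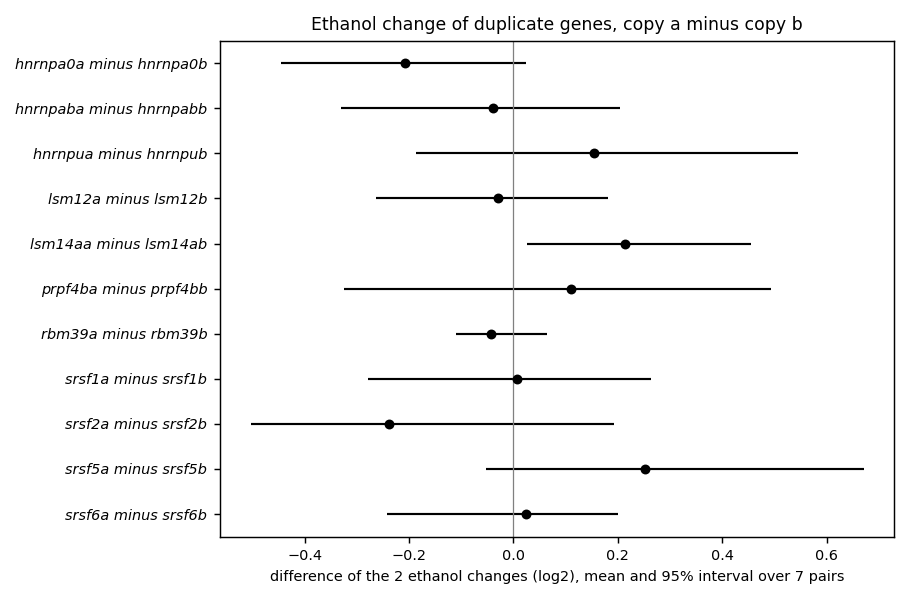
Difference between the ethanol changes of duplicate genes (x axis, log2, copy a minus copy b) as mean and exact 95% interval over 7 pairs. The interval of rbm39a minus rbm39b, from -0.11 to 0.06, is narrow around 0, and that of lsm14aa minus lsm14ab lies above 0.

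Splicing genes outside the 8 symbol groups were also counted. Of 147 listed, 111 had a probe set of their own and 106 were tested: 2 rose, 2 fell and 102 did not pass the test, with a median log2 change of -0.02. Of all probe sets 4.36% were called, so these 4 are near the background share. The rise of gemin7 was the largest of these changes. It encodes a subunit of the SMN complex, which loads Sm proteins onto snRNAs. Its signal ran from 961 through 1076 to 1387 in control pools and from 1499 through 1804 to 2092 in ethanol pools. Every ethanol pool was above every control pool, and the log2 fold change was 0.68, SE 0.10, adjusted p = 0.00132 (limma, n = 7 pairs). Of other genes of that complex, smn1, gemin2, gemin4, gemin5, gemin8 and strap did not pass the test, and gemin4 had the highest value of them (0.32, SE 0.14, adjusted p = 0.266).
The regulator of alternative splicing celf1 rose in 6 of 7 pairs, from 1517 ± 381 (SD, n = 7) to 1970 ± 303 (SD, n = 7), at 0.40, SE 0.11, adjusted p = 0.0717. The helicase genes ddx42 (-0.38, SE 0.10, adjusted p = 0.0632), which acts at the U2 snRNP in mammals, and ddx3xa (-0.39, SE 0.11, adjusted p = 0.0633), better known from translation, fell in all 7 pairs. The calls of celf1, ddx42 and ddx3xa were each lost with 5 of the 7 pairs left out in turn, and that of gemin7 with none. With batch as a random effect, by the same shared correlation, the first 3 were not called either (limma adjusted p = 0.16, 0.372 and 0.131), and gemin7 was.

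As over the whole array (2058 probe sets against 403), more of these genes differed between embryo batches than between treatments. Of the 97 genes, 27 (27.8%) differed between batches (moderated F test over 6 batch coefficients in the same fit, adjusted p up to 0.10). So did 22.3% of all probe sets and 24% of named genes with 1 probe set each, so the share of 27.8% is near the background. None of the 27 was among the genes called for ethanol. Their number was 16 with each array centred on its median, 9 with no moderation of variances and 7 without the trend, whereas rbm45, prpf31, snrpa and rbmx were called in each of these settings. They comprise 6 of 13 SR protein genes, 4 of 11 snRNP genes, 3 of 11 PRPF genes, 2 of 9 SF3 genes, 2 of 11 LSM genes, 4 of 19 hnRNP genes and 6 of 21 RBM genes. Between the highest and the lowest batch mean the 27 genes differed by 1.41-fold to 3.43-fold, with a median of 1.61-fold. The genes named here were chosen after their values were seen, as those with the smallest p.
The strongest difference was in rbm45, an RNA binding protein gene (adjusted p = 5.3e-07, limma). In batches 1, 3 and 4 the control pools gave 4675, 4678 and 4896, and in batches 2, 5, 6 and 8 they gave 1716, 1923, 1648 and 2323. The ethanol pools repeated this in the same batches, at 5048, 4480 and 5406 and at 1309, 1912, 1885 and 2273. No pool lay between 2323 and 4480, so the pools fell into separate clusters by batch, and the log2 change with ethanol did not pass the test (-0.01, SE 0.09, 95% interval from -0.19 to 0.18).
For prpf31, a tri-snRNP gene, the order was different (adjusted p = 0.000124). The mean signal of a batch, as the geometric mean of its 2 pools, was 1880 in batch 2, 2134 in batch 6 and 2204 in batch 8, and between 3337 and 4018 in the other 4 batches. For snrpa, a U1 snRNP gene, it was 7125 in batch 2 and 13283 in batch 1 (adjusted p = 0.000632), and for the Sm gene snrpd3 8288 in batch 2 and 16234 in batch 3 (adjusted p = 0.00117). The gene rbmx ran from 10202 in batch 2 to 18047 in batch 4 (adjusted p = 0.000942), and snrpc, another U1 gene, from 20132 in batch 8 to 29050 in batch 3 (adjusted p = 0.00286).

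**Figure D4:**
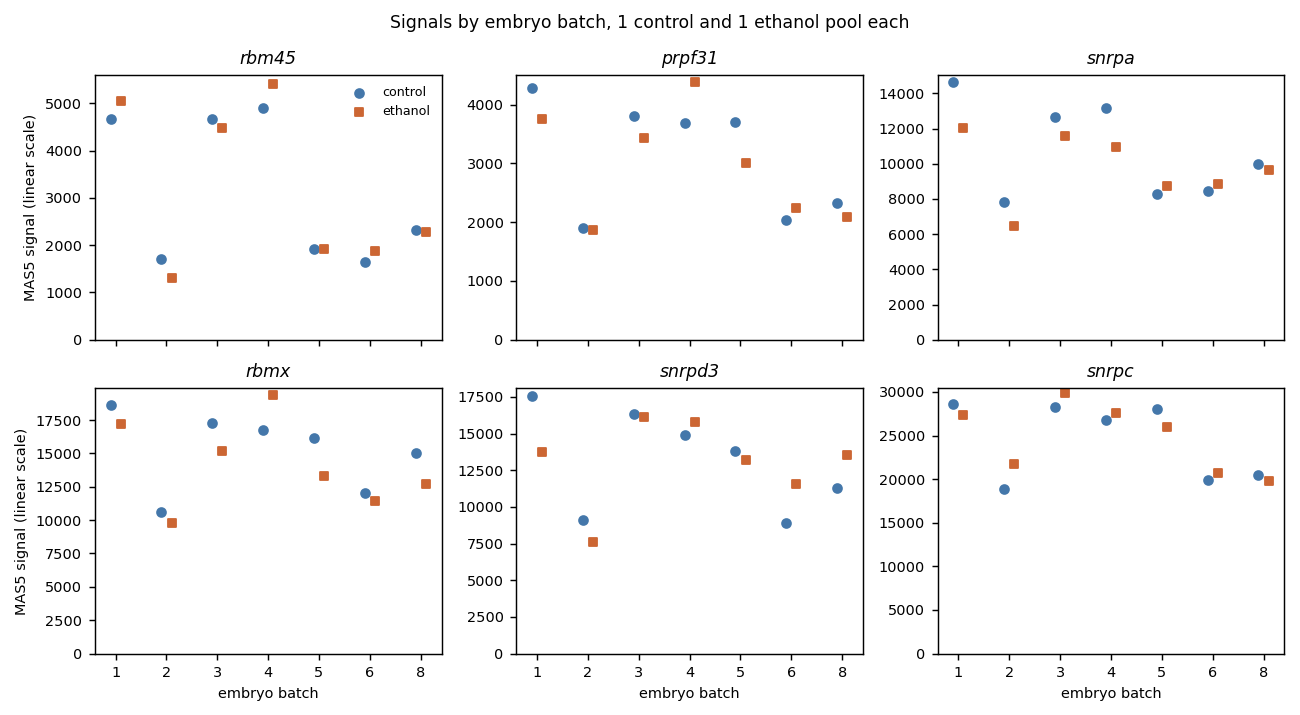
MAS5 signals (y axis, linear, from 0) by embryo batch for the 6 splicing genes with the strongest batch differences, circles for control and squares for ethanol pools. The 2 pools of a batch can differ, as for snrpd3 in batch 1 (17581 in the control and 13710 in the ethanol pool). For rbm45, batches 1, 3 and 4 stand above the other 4, with no pool between 2323 and 4480.

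Many of these genes had their lowest or highest mean in the same batches. In 22 of the 27 the lowest mean was that of batch 2 (14 genes) or batch 6 (8 genes), and in 17 the highest was that of batch 3 or 4. Of the 2058 probe sets of the whole array that differed between batches, 32.7% (673) had their lowest mean in batch 2 or 6 and 32.7% (672) their highest in batch 3 or 4. These batches were picked after the counts of the 27 genes were seen, as their most frequent extremes. Genes measured in the same pools are not independent, so the contrast with the array is a description and was not tested. The 2058 probe sets were not matched to these genes for signal level. The part of signal level or array scaling in this contrast was not tested. Counting the 97 genes together, their median deviation from the mean of all pools was -0.10 in the control pool and -0.11 in the ethanol pool of batch 2, and -0.10 and -0.09 in those of batch 6, while the same medians over all probe sets tested were between 0.03 and 0.09 in these 4 pools. There are exceptions, which ran the other way: snrpg, an Sm gene, had its highest mean in batch 6 (6634) and its lowest in batch 5 (3931), and hnrnpk likewise (11044 and 7831). The gene lsm1 was highest in batch 2 (597) and lowest in batch 3 (270).
Within a pair, the median change of the 97 genes was below 0 in 6 of the 7 batches, from -0.08 in batch 1 to 0.05 in batch 6. The same median over all probe sets tested ran from -0.03 to 0.04 and was below 0 in 3 of the 7. Of the 97 genes, those below 0 numbered 60, 53, 51, 52, 51, 40 and 57 in batches 1 to 6 and 8. In batches 3, 4 and 5 the median of the 97 was -0.01, -0.02 and -0.01. The SD of the 7 medians was 0.04.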

How the data were processed

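RNA of 14 pools was labelled with the Affymetrix kit for 3' expression arrays and hybridized to the Zebrafish Genome Array. The authors generated MAS5 signals, which they deposited as linear intensities after scaling every array to 1000. The methods state that arrays were labelled and scanned together. Of 15617 probe sets, 115 controls were left out. Names came from the array annotation, with symbols updated through gene identifiers (10718 of 10802 single-symbol probe sets matched). No genome was used, so positions are not given.

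Probe sets with a signal of at least 200 in at least 3 of 7 arrays of a treatment were kept (9240, with 6262 left out), since detection calls were not used here. The model, on log2 signals, had fixed terms for treatment and for embryo batch (limma 3.58.1, R 4.3.3). Variances were moderated by eBayes with a trend, which left 6 residual and added 12.7 prior degrees of freedom. Benjamini-Hochberg adjustment ran over all probe sets. The methods fit batch as a random effect in an analysis of variance. In this balanced design that gives the same treatment contrast as a fixed block. A random effect with a correlation shared by all probe sets (0.313) was tried as an alternative with statmod 1.5.0. It is a different model from that of the methods. Batch numbers come from sample titles. Deviations from the treatment means correlated between same-numbered pools in every pair (r from 0.112 to 0.378), so equal numbers were taken as pairs. Neither the titles nor the methods state that pools of equal number share an experiment, so this is an assumption. In batch 1 the correlation with a pool of another number was higher (0.165 against 0.112). The members and lists were chosen with earlier results of these data known. By rule, the text names the genes called (with every pool's signal for splicing factors), the highest and lowest of each family, up to 4 other splicing genes in each direction, and further members as family examples. Duplicate couples, and genes whose probe sets disagree, were named after their values were seen. Couples were compared by an exact sign-flip test. Other signal minimums (100, 400 and none), scalings, an offset of 100, other variance models, array weights, a threshold of 0.05 and each pair left out were tried. On simulated data with 9240 probe sets, 50% of changes of 0.5 and 79% of changes of 1 in log2 were recovered, and 5.15% of 136 calls were false. Precision is limited by the number of arrays. Plots were made in Python 3.11.15 by matplotlib 3.10.9.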

Additional observations from a re-analysis of the deposited data

Results flagged for a closer look

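In 126 groups of 7 signals, for 63 genes named or described in the text, 3 held a pool far from the other 6, by a gap large beside the range of the group (Dixon's test at the 95% level), where chance gives about 1 group in 20. The signal of ddx42 was 2490 in the control pool of batch 4, with the next at 1234, and 2170 in the ethanol pool of batch 4, with the next at 1030. The signal of srsf2a was 23599 in the control pool of batch 4, with the next at 20345.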

How the results depend on the processing

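No splicing gene of the 97 rose in any setting tried. The number that fell was 2 with quantile normalization, and 4 at a signal minimum of 400 and with array weights. The genes counted were not the same in every setting: without batch 1 there were 3, although prpf39 and rbm39a were then not called. The count of 3 that fell was 0 with arrays centred on their median, with no replicate block and without the variance trend, 1 with the replicate block as a random effect, with no moderation and at a threshold of 0.05, and 0 to 3 with a pair left out. In the same order, all probe sets called, 403, became 103, 28, 43, 177, 45 and 215, and 209 to 467. The 2 other splicing genes that rose became 1 in each of these 6 settings, and 1 to 2 with a pair left out. The 2 that fell became 0, 0, 0, 0, 1 and 0 in the same order, 4 with array weights, 5 with every tested probe set counted, and 0 to 4 with a pair left out. The count of genes that differed between batches, 27, became 16 with median centring, 7 without the trend, 9 with no moderation and 17 at 0.05, and 18 to 30 with a pair left out. The median change of the 97 genes stayed between -0.03 and -0.01 with a pair left out. The cause of these shifts was not tested. By ordinary analysis of variance, as in the methods, none of the 97 genes passed an unadjusted p of 0.001 together with 1.5-fold, which 27 of all probe sets did. Signals near 200 limit what can be seen for rbm44, snrpd2, hnrnph1 and lsm14b.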
